A study of Mus musculus with 4 samples.

Results

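The data described here were the 2 libraries titled Mock, of the 4 libraries in the study: the transcriptome of 4T1 cells that had received mRNA for the fluorescent protein EGFP. Of 53647 annotated genes, 12388 (23.1%) had at least 10 counts in both libraries and were kept for levels and ranks. 4T1 is an established line from a mammary carcinoma of a BALB/c mouse, labelled WT in genotype, and is widely used because it spreads from the mammary fat pad to the lung. The cells were grown in RPMI1640 with 10% serum and given EGFP mRNA in DMEM, with either a transfection reagent (TransIT-mRNA) or SS-OP lipid nanoparticles as the carrier. The carrier of each library is not stated, nor are the dose and the time. The remaining 2 libraries received uniSTING mRNA and are not used here. Cells without mRNA are not part of the data, so "baseline" means mock-treated cells, and the line stands for 1 tumour.

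The libraries held 17502694 and 22039546 counts assigned to genes. Levels are in transcripts per 1000000 (TPM): a count divided by the gene's exon length and scaled so that all genes of a library sum to 1000000. The length is that of all annotated exons of the gene merged, so ranks and ratios between genes depend on it. Pairs of values are replicate 1 and then replicate 2, which the labels number as preparations. The labels do not say that these came from separate cultures, so the spread between them may be technical. With 1 group of 2 libraries no test was made. A count of 0 is read against the level that 3 counts would give, which for a gene of 1000 bases was 0.525 and 0.417 TPM. These limits cover counting error only.

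Carcinoma cells of the mammary gland usually keep the simple epithelial keratins and junction proteins of luminal cells, and may add vimentin, fibronectin and the transcription factors of the epithelial to mesenchymal transition. Cytosolic DNA is sensed by cGAS, whose product activates the adaptor STING and, through the kinase TBK1, the factor IRF3 that induces interferon. RNA is sensed by RIG-I and MDA5 through MAVS, and Toll-like receptors sense microbial products at the cell surface and in endosomes. Tumour cells also release chemokines, colony-stimulating factors, proteases and matrix that act on neighbouring cells.

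The 2 libraries gave nearly the same order of genes. Over kept genes, Spearman's rho of TPM between them was 0.997 across genes, which are not independent replicates, and the median absolute log2 ratio was 0.07. The coefficient of variation had a median of 16.2% for genes of 10 to 20 counts, 4.07% for 100 to 1000 counts and 0.729% above 10000 counts. The variance between the libraries was estimated from the median absolute deviation of their log ratios, which gives little weight to genes far apart. It was 0.734 to 1.85 times the variance that counting alone gives, depending on the band of counts. The value of 0.734 belongs to the band of 10 to 20 counts, which the minimum of 10 cuts. Among kept genes, 64 were more than 2-fold higher in replicate 1 and 16 were more than 2-fold higher in replicate 2. Of those higher in replicate 2, the processed pseudogene Gm12918 had 170 and 1261 counts. Srp54b, a copy of the gene for the signal recognition particle subunit SRP54, had 43 and 274 counts. Of those higher in replicate 1, the processed pseudogene Gm4900 had 48 and 16 counts, Gpx3 had 47 and 16 and Cd34 had 28 and 12.

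A small set of genes was seen in replicate 1 and hardly or not at all in replicate 2. By the rule of at least 20 counts in 1 library and at most 5% of that in the other, 35 genes were seen only in replicate 1 and 0 only in replicate 2. Their 4444 counts were 0.0254% of the replicate 1 library, against 6 counts in replicate 2, where 31 of the 35 had none. The islet genes were Ins2 (1226 and 0 counts) and Ins1 (275 and 0), which encode insulin, Iapp (250 and 0 counts) and Gcg (224 and 0), which encode islet amyloid polypeptide and glucagon. Sftpc, a lung surfactant protein gene, had 421 and 0 counts, Scgb1a1, a secretory protein gene of airway club cells, had 169 and 0, and Sftpa1, another surfactant protein gene, had 84 and 0. Lyz2, a lysozyme gene of myeloid cells, had 155 and 0 counts, Chga, a neuroendocrine granule gene, had 81 and 0, and the pseudogene Gm13237 had 679 and 2. The list also held the haemoglobin genes Hbb-bs, with 75 and 0 counts, and Hba-a1, with 35 and 0. Apart from Gm13237, the genes named here are known from pancreatic islets and other endocrine cells, lung and blood, which no label of these samples names. None of the 35 was kept, and they are treated below as doubtful. The part of such RNA in low counts of other genes in replicate 1, kept genes among them, was not tested. In all, 59 genes had 10 or more counts in replicate 1 and none in replicate 2, against 7 the other way.

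**Figure D1:**
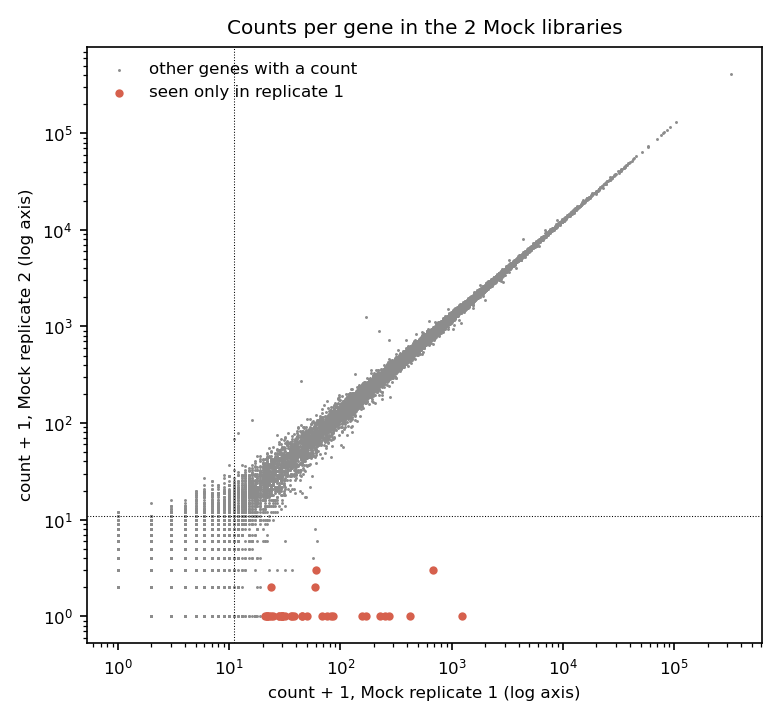
Counts per gene plus 1 in the 2 Mock libraries, on log axes, with replicate 1 on the horizontal axis and replicate 2 on the vertical axis. Each point is a gene and dotted lines mark 10 counts; the 35 genes seen only in replicate 1 (red) lie along the bottom edge, while most genes lie in 1 narrow band.

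Expression was spread over a wide range. Kept genes had a median of 20.7 TPM, with 10% of them below 2.01 TPM and 10% above 134 TPM. Of the kept genes, 137 exceeded 1000 TPM, 1709 exceeded 100 TPM and 582 were under 1 TPM. The 10 most abundant genes held 10.1% of all TPM in each library, the 100 most abundant held 31.3%, and the 1000 most abundant held 64.7% and 64.8%. The 100 genes with the most counts held 19.5% of counts when length was not divided out. Long genes rank higher on that scale, so the share and the ranks given here belong to the TPM scale.

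The 20 most abundant entries were of several kinds, among them genes of translation, mitochondrially encoded genes and pseudogenes. Eef1a1, the elongation factor that brings aminoacyl-tRNA to the ribosome, led with 22858 and 22835 TPM. Lgals1, which encodes the secreted lectin galectin-1, was second with 15438 and 15371 TPM. Both libraries placed these genes first and second. Hsp90ab1, a cytosolic chaperone, had 6111 and 6111 TPM, Actb (beta-actin) had 4979 and 5006 TPM and the elongation factor Eef2 had 4843 and 4887 TPM. The calcium-binding S100a6 had 4912 and 4962 TPM and S100a11 had 4512 and 4450.4 TPM. Among cytosolic ribosomal protein genes, 84 of 89 were kept with a summed level of 115843 TPM. Those among the 20 most abundant genes were Rplp1 (9204 and 9218 TPM), Rplp0 (6104 and 6111), Rps15 (5151 and 5143), Rpl19 (4993 and 5067), Rpl41 (4936 and 4892), Rps3a1 (4567 and 4561) and Rpsa (4472 and 4488).

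Values of genes with near-identical copies are uncertain, because the authors counted uniquely mapped reads and such copies can split or lose them. Processed pseudogenes held 10.7% and 10.6% of TPM. Processed pseudogenes among the 20 most abundant entries were Gm10123 with 11148 and 11412 TPM, Gm15772 with 7153 and 7210.0 TPM and Gm8730 with 6627 and 6662 TPM. Genes on the mitochondrial chromosome held 3.50% and 3.44% of TPM. Of the protein genes encoded there, 12 of 13 were kept. Those for respiratory chain subunits ranged from mt-Co1 (9767 and 9685 TPM), mt-Nd1 (6585 and 6499 TPM) and mt-Cytb (5446 and 5366 TPM) down to mt-Co2 (60.9 and 39.9 TPM), mt-Atp6 (37.5 and 29.6 TPM) and mt-Co3 (19.7 and 18.1 TPM). The mouse nuclear genome holds copies of mitochondrial DNA, and their part in the low values was not tested.

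4T1 cells in these libraries carried the keratins of simple, luminal-type epithelium together with 1 abundant basal keratin. Of the luminal keratins, 4 of 5 were kept, beside 23.1% of all annotated genes and 50.3% of the 21878 protein-coding genes. Krt18 had 2614 and 2637 TPM and ranked 38 among kept genes, and Krt8, its filament partner, had 1986 and 2014 TPM and ranked 56. Krt8 over Krt18 was 0.760 and 0.764 in the 2 libraries. Krt7 had 456 and 469.9 TPM and Krt19 had 111 and 108 TPM, whereas Krt20, a keratin of gut and urothelium, had no count, where 3 counts would give 0.273 and 0.217 TPM. Of the basal and stratified keratins, 5 of 12 were kept. Krt14, a keratin of basal cells, had 312 and 314 TPM, while its usual partner Krt5 had 1 and 0 counts. Krt80, a type II keratin, had 40.9 and 39.6 TPM, and the lowest kept keratins were Krt16 (6.49 and 5.34 TPM), Krt10 (2.24 and 2.63) and Krt17 (1.81 and 1.26). No count was recorded for Krt1, Krt4, Krt6a, Krt6b or Krt15, and Krt13 had 0 and 2 counts. Levels of the 4 kept luminal keratins and of the 5 kept basal and stratified ones were in the same order in both libraries. The order depends on exon length, which both libraries share. Krt7 had 18371 and 23801 counts over 7049 bases, and Krt18 had 21451 and 27228 counts over 1437 bases.

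The 250 bases before the start of Krt8 and of Krt5 are shown for an abundant keratin gene and for one with 1 and 0 counts. Both lie on chromosome 15 and on the minus strand, and capitals mark the CpG dinucleotides (RefSeq, reference build GRCm38.p6).
Krt8 chr15:102004343-102004592: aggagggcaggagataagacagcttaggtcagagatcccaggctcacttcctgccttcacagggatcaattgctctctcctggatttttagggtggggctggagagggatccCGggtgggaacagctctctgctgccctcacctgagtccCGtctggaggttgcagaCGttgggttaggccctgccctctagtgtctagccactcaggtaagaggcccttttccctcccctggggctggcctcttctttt
Krt5 chr15:101712906-101713155: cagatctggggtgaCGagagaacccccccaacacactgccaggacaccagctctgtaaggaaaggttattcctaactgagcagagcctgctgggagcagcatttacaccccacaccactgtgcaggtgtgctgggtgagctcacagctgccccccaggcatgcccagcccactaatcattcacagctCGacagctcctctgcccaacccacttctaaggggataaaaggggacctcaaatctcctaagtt
The Krt8 stretch held 3 CpG and the Krt5 stretch held 2. In windows that also took in the first 50 bases after the start, both genes had 6 CpG, which is 0.238 and 0.251 of the number that base composition predicts for Krt8 and Krt5.

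Genes of epithelial adhesion and of epithelial identity were expressed broadly. Of the adhesion and junction genes, 28 of 30 were kept. The tight junction claudin genes Cldn4 (495 and 509 TPM) and Cldn3 (347 and 357) were among the most abundant. Cdh1 (E-cadherin) had 425 and 419 TPM, its partner Ctnnb1 (beta-catenin) had 442 and 437 TPM, and Epcam, an epithelial adhesion gene, had 402 and 399 TPM. They ranked from 284 for Cldn4 to 416 for Cldn3 among kept genes. Ctnna1 (alpha-catenin) had 179.7 and 179 TPM and Cldn7 had 147 and 145 TPM. Cldn1 had 5 and 14 counts and Gjb2, a connexin, had 0 and 1. Exons of other genes cover 61.2% of Ctnnd1 (p120-catenin), which had 12.8 and 12.5 TPM; reads there cannot be assigned to 1 gene with certainty.

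Of the epithelial regulators and surface proteins, 19 of 23 were kept. Cd24a, a surface glycoprotein of epithelial progenitors, had 502 and 510.3 TPM. The membrane protease St14 (matriptase) had 98.99 and 101 TPM and its inhibitors were Spint2 (156 and 155 TPM) and Spint1 (84.5 and 86.7). Esrp1, the splicing factor of epithelial isoforms, had 54.2 and 54.9 TPM, and Klf5 had 55.8 and 54.5 TPM. Rab25, an epithelial trafficking GTPase, had 50.7 and 53.9 TPM. The 4 members below the minimum were Muc1 (4 and 0 counts), the basal factor Trp63 (2 and 4), Ehf (1 and 0) and Tfap2c (2 and 9).

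Of all 23 claudins, 7 (30.4%) were kept, beside 50.3% of protein-coding genes. Cldn4, Cldn3, Cldn7 and Cldn12, at 87.1 and 85.9 TPM, made up most of the family's level, and the endothelial claudin Cldn5 had 9 and 0 counts.

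Of the mesenchymal genes, 13 of 22 (59.1%) were kept, near the 50.3% of protein-coding genes, and they differed widely in level. Vim, the intermediate filament gene of mesenchymal cells, had 1451 and 1455 TPM and ranked 82. Axl, a receptor kinase, had 628 and 632 TPM and Fn1 (fibronectin) had 499 and 498 TPM. Vim over Cdh1 was 3.41 and 3.48 in the 2 libraries. The transcription factor genes of this programme included Twist1 (38.1 and 39.4 TPM), Snai1 (31.2 and 25.8), Foxc2 (20.6 and 18.0), Tcf4 (11.6 and 10.97) and Zeb2 (6.26 and 6.27), all well below Vim. Zeb1, which represses Cdh1 in many carcinoma cells, was near the bottom of the kept genes at 0.307 and 0.407 TPM from 18 and 30 counts. Snai2 had 1 and 0 counts, and Twist2, Prrx1 and Cdh2 (N-cadherin) had none. For these, 3 counts would give 0.166 and 0.132 TPM for Twist2, 0.0475 and 0.0377 TPM for Prrx1 and 0.0651 and 0.0518 TPM for Cdh2. Exons of other genes cover 46.5% of Twist2 and reads there cannot be assigned, so its limit is less firm. Of smooth muscle genes, Acta2 (4 and 12 counts), Myl9 (1 and 1) and Cnn1 (2 and 0) lay below the minimum. Tagln, also a smooth muscle gene, had no count, but exons of other genes cover 67.9% of it and reads there cannot be assigned.

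Genes of the mammary lineage and of hormone response were kept in part. Of this list, 19 of 41 were kept, near the 50.3% of protein-coding genes, and 14 had no count. Itgb1 (integrin beta-1) had 1178 and 1186 TPM, Cd44 had 188 and 186 TPM, Sox4 had 161 and 162 TPM and Itga6 had 73.3 and 74.5 TPM. Gata3, a factor of the luminal lineage, had 49.6 and 54.5 TPM, Sox9 had 47.3 and 46.1 TPM and Procr, a marker of mammary stem cells, had 47.9 and 49.5 TPM. Erbb2 (HER2) had 42.0 and 43.5 TPM. Esr1, the oestrogen receptor gene, ranked 10984 with 2.22 and 2.38 TPM from 173 and 234 counts. Of other hormone genes that were kept, Areg, an oestrogen target in the mammary gland, had 41.7 and 38.9 TPM, the growth hormone receptor gene Ghr had 8.63 and 9.32 TPM, and the signal transducer genes of prolactin and growth hormone were Stat5b (34.1 and 34.5 TPM) and Stat5a (4.98 and 4.62). Foxa1, a cofactor of the oestrogen receptor, had 2.68 and 1.97 TPM. The progesterone receptor gene Pgr and the oestrogen targets Greb1, Tff1 and Tff3 had no count, so that oestrogen targets were found on both sides of the minimum. The milk genes Csn1s1, Csn2, Wap and Lalba were also without a count, while Csn3 had 13 and 9. For Pgr, 3 counts would give 0.0615 and 0.0489 TPM. The genes of luminal progenitors and alveolar cells Prlr (5 and 0 counts), Kit (2 and 0) and Elf5 (1 and 0) had counts in replicate 1 alone.

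**Figure D2:**
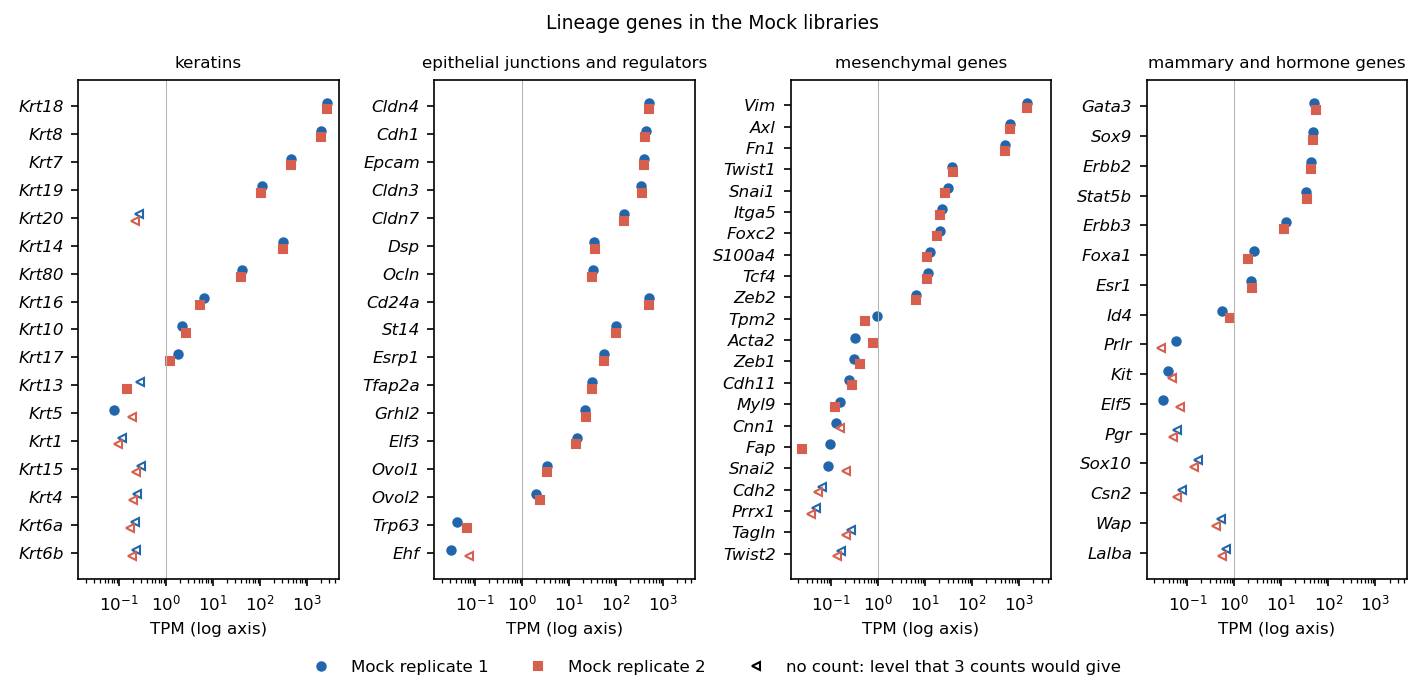
TPM on a log axis for keratins, epithelial, mesenchymal and mammary genes in replicate 1 (blue circles) and replicate 2 (red squares), with open triangles at the level of 3 counts where a library had none. Krt8 and Krt18 lie above 1000 TPM and Vim does too, whereas Cdh2, Prrx1, Pgr and Csn2 have only open triangles.

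Markers of other cell types were few, and several of them came from replicate 1 alone. In bulk RNA, fewer cells of a type and less RNA per cell cannot be told apart. Of the immune markers, 4 of 25 were kept, and all 25 summed to 457 and 361 counts. Without Lyz2, one of the 35 genes seen only in replicate 1, the sums were 302 and 361 (an alternative chosen after seeing the data). These raw sums are not scaled for depth, which was higher in replicate 2. In TPM the 25 summed to 54.3 and 31.4, of which Lyz2 held 20.6 and 0, so replicate 1 stayed higher without it. The kept ones were Cd68 (20.5 and 15.7 TPM), a lysosomal gene, Cd14 (9.91 and 13.9 TPM), a co-receptor for lipopolysaccharide, Coro1a (0.818 and 1.05 TPM) and Csf1r (0.637 and 0.530 TPM). The pan-leukocyte gene Ptprc (CD45) had 8 and 0 counts, Cd3e had 2 and 0, and Itgax, Adgre1, Ly6g and Mpo had none.

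Of the endothelial markers, 2 of 11 were kept, with sums of 707 and 949 counts, and 5 would be kept from replicate 1 alone. The 2 kept in both libraries were Flt1, a VEGF receptor gene, at 6.85 and 7.83 TPM and Egfl7 at 5.77 and 6.92 TPM. The genes Pecam1 (18 and 3 counts) and Cdh5 (10 and 2), which define endothelium, had fewer counts in replicate 2. Of the fibroblast and pericyte markers, 4 of 13 were kept, with sums of 1485 and 1681 counts. Postn (periostin) had 25.4 and 23.8 TPM, and the other kept ones were Pdgfra (2.20 and 1.96 TPM), Col1a1 (0.934 and 0.594) and Fbn1 (0.231 and 0.126). Dcn (decorin) had 7 and 0 counts, Col3a1 had 6 and 0 and Lum had none. Of the adipocyte, blood, muscle, nerve and liver markers, 2 of 25 were kept, and 5 would be kept from replicate 1 alone. Those kept in both included Mbp, at 10.96 and 11.3 TPM, while Adipoq, Alb and Myod1 had no count. Of the melanocyte, germ cell and placental genes, 2 of 19 were kept, namely Mitf at 3.17 and 3.30 TPM and Psg17 at 2.67 and 2.32 TPM. Pou5f1, Nanog, Sox2 and Tyr had no count.

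Hox genes were kept from 1 cluster only. They encode the transcription factors that mark position along the body axis and lie in 4 clusters. Of the 39 members 9 were kept, all of them among the 11 of the HoxA cluster, which held 3074 and 4013 counts. The HoxB cluster held 1 and 0 counts, HoxC 3 and 2, and HoxD 10 and 3. Hoxa5 led with 136 and 132 TPM, followed by Hoxa6 (41.5 and 38.1 TPM), Hoxa10 (24.6 and 28.6 TPM) and Hoxa2 (18.4 and 25.5 TPM), and all 10 of the HoxD counts in replicate 1 lay in Hoxd8. Hoxa2 differed most between the libraries of these 4, and counting without strand leaves overlapping neighbours in the cluster hard to separate.

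Of the integrin subunits, 15 of 25 (60%) were kept, beside 50.3% of protein-coding genes. Itga3 had 992 and 1001 TPM, close to the 1178 and 1186 TPM of its partner Itgb1, and Itga3 over Itga5 was 42.7 and 48.8. Lower in the family came Itgb5 (95.4 and 92.3 TPM), Itga2 (78.3 and 79.3) and Itgav (62.2 and 61.9), and Itgb4, the partner of Itga6 in hemidesmosomes, had 53.2 and 53.1 TPM. The leukocyte subunit genes Itgal (3 and 0 counts) and Itga4 (2 and 0) had counts in replicate 1 alone, and Itgax had none.

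The pathway from cytosolic DNA to interferon was expressed at middle levels, while the inflammasome sensor Aim2 had no count. Of the DNA sensing genes, 16 of 18 were kept. Cgas, the DNA sensor, had 16.04 and 16.8 TPM and ranked 6916 of 12388, and Sting1, its adaptor, had 22.2 and 21.8 TPM and ranked 5997. Cgas over Sting1 was 0.722 and 0.771. The kinase Tbk1 had 51.1 and 53.2 TPM, its relative Ikbke had 7.15 and 7.02 TPM and Irf3 had 26.6 and 28.5 TPM. These values lay around the median of kept genes, 20.7 TPM, with Tbk1, Irf3 and Sting1 above it and Cgas and Ikbke below. With length not divided out, Cgas ranked 7105 and Sting1 7441 of 12388. Sting1 then stood below Cgas and below the middle of the kept genes. Of the interferon-inducible p200 family, Ifi204 (47.5 and 46.1 TPM) and Ifi203 (21.9 and 21.8) were kept. The chromatin protein Banf1, which restrains cGAS on nuclear DNA, was the most abundant of the list with 586 and 596 TPM. Genes that also serve DNA repair and RNA metabolism included the helicase genes Dhx9 (131 and 129.6 TPM) and Ddx41 (60.2 and 61.0) and the DNA end-binding genes Xrcc5 (130.0 and 124 TPM), Xrcc6 (48.4 and 48.4) and Mre11a (70.7 and 69.8). Aim2 had no count, where 3 counts would give 0.150 and 0.119 TPM, and Ifi205 had 2 and 5.

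The 250 bases before the start of Cgas, on the minus strand of chromosome 9, and of Aim2, on the plus strand of chromosome 1, are shown for a sensor with and a sensor without counts. Capitals again mark CpG (RefSeq, GRCm38.p6).
Cgas chr9:78443238-78443487: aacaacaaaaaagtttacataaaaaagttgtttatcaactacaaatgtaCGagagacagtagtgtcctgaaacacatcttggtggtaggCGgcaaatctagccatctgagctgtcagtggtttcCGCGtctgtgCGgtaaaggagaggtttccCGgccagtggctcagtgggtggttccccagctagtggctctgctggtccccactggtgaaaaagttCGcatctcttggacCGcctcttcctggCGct
Aim2 chr1:173420354-173420603: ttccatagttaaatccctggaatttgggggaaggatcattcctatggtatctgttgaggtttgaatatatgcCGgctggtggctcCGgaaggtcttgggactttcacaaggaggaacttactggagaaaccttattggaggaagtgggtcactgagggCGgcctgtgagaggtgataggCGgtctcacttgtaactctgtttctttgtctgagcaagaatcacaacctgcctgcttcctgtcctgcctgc
The Cgas stretch held 9 CpG and the Aim2 stretch held 4. In the windows with the first 50 transcribed bases the numbers were 16 and 5, or 0.760 and 0.277 of what base composition predicts.

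A further list held regulators of the pathway, both enzymes that remove its nucleic acid or cGAMP triggers and carriers that bring cGAMP into cells. Of these, 11 of 12 were kept. The subunit genes of RNase H2, which removes RNA from RNA-DNA hybrids, were Rnaseh2c (95.5 and 102 TPM), Rnaseh2a (44.2 and 44.8) and Rnaseh2b (11.2 and 10.8), so that Rnaseh2c was 8.53 and 9.44 times Rnaseh2b. Samhd1, which degrades deoxynucleotides, had 29.5 and 31.2 TPM. Enpp1, which degrades extracellular cGAMP, was among the lowest with 1.95 and 1.60 TPM, and the cGAMP importer Slc19a1 had 33.8 and 34.2 TPM. Trex1, the cytosolic DNA exonuclease, had no count, but exons of other genes cover 100% of it, so its level cannot be read from these counts. The same holds in part for the channel subunit Lrrc8a, at 5.45 and 5.39 TPM, of which over 50% is covered.

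Of the RNA sensing genes, 16 of 17 were kept. Ddx58 (RIG-I) had 15.1 and 13.5 TPM, Ifih1 (MDA5) had 7.94 and 7.62 TPM and Mavs, their adaptor, had 33.0 and 30.04 TPM. Trim25, a ubiquitin ligase of the RIG-I pathway, had 56.0 and 58.5 TPM, Zc3hav1, an antiviral zinc finger gene, had 71.9 and 70.4 TPM and Adar, which edits double-stranded RNA, had 28.6 and 25.8 TPM. Eif2ak2 (PKR) had 18.7 and 18.8 TPM. The kept oligoadenylate synthetase genes were Oasl1 (14.7 and 13.8 TPM), Oas1a (9.66 and 7.83) and Oas3 (0.372 and 0.512). Oas3 had 15 and 26 counts and Oas2 none, where 3 counts would give 0.118 and 0.0938 TPM. The cells had received mRNA before sampling, so these are levels after mRNA delivery.

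Of the 12 Toll-like receptor genes, 5 (41.7%) were kept, beside 50.3% of protein-coding genes. The endosomal ones other than Tlr3 were not kept. Tlr3, which senses double-stranded RNA, had 22.1 and 20.7 TPM. The receptor genes for bacterial lipoproteins and lipopolysaccharide were Tlr2 (20.04 and 19.9 TPM) and Tlr4 (11.98 and 10.9). The lowest were Tlr6 (1.60 and 1.83 TPM) and Tlr5 (1.11 and 0.965), and the 5 kept genes came in the same order in both libraries. Tlr7, a sensor of single-stranded RNA, had 5 and 5 counts and Tlr1 had 4 and 15. Tlr8, Tlr9, Tlr11, Tlr12 and Tlr13 had none, where for Tlr9, a DNA sensor, 3 counts would give 0.151 and 0.120 TPM. Of their adaptors and accessories, 11 of 16 (68.75%) were kept. They were led by Irak1 at 70.1 and 71.4 TPM, Tollip at 48.9 and 50.6 TPM and Traf3 at 47.3 and 48.5 TPM. The kept adaptor genes included Tirap (29.1 and 30.8 TPM), Myd88 (20.6 and 23.1) and Ticam1 (5.38 and 6.84). Unc93b1, which carries endosomal receptors to their compartment, had 14 and 6 counts, Lbp and Ticam2 had none, and Cd36 and Irak3 had counts in replicate 1 alone.

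Of the inflammasome and pyroptosis genes, 7 of 17 (41.2%) were kept, beside 50.3% of protein-coding genes. Nek7, a kinase that NLRP3 binds, had 87.1 and 85.5 TPM, Ninj1, which ruptures the membrane of dying cells, had 51.9 and 55.5 TPM and the pore gene Gsdmd had 18.2 and 15.0 TPM. Casp1 had 3.29 and 2.13 TPM. The sensor Nlrp3 had 5 and 8 counts, the adaptor Pycard (ASC) 8 and 5 and the cytokine Il1b 4 and 5, while Nlrp1a, Nlrp1b, Nlrp6 and Naip5 had none. With a minimum of 1 count in both libraries 12 of the 17 would be kept. Of the NOD-like signalling genes, 7 of 8 were kept, led by the deubiquitinase gene Cyld at 27.7 and 27.5 TPM and by Ripk2, the kinase below the NOD receptors, at 26.9 and 28.2 TPM. Nod2 had 1.22 and 1.44 TPM and Nod1 had 0.862 and 0.849 TPM, whereas Ciita, the activator of MHC class II genes, had 5 and 1 counts.

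Every listed gene of interferon reception and signalling was kept (17 of 17), and no interferon gene was. The median of these 17 was 8.98 TPM, below the 20.7 TPM of all kept genes. Jak1 led with 69.8 and 68.7 TPM, followed by Irf1 with 54.7 and 57.1 TPM. The receptor genes for type II interferon were Ifngr1 (45.0 and 43.6 TPM) and Ifngr2 (37.7 and 39.0), and those for type I interferon were Ifnar1 (25.2 and 26.5 TPM) and Ifnar2 (17.4 and 18.2). In both libraries each type II receptor gene stood above each type I receptor gene. Irf7, which amplifies the response, was lowest with 1.30 and 1.95 TPM. Of the type I, II and III interferon genes, 0 of 21 were kept and 18 had no count. Ifnb1 had 3 and 0 counts, Ifnz had 3 and 2 and Ifng had 3 and 0, and for Ifnb1 3 counts would give 0.7005 and 0.557 TPM.

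**Figure D3:**
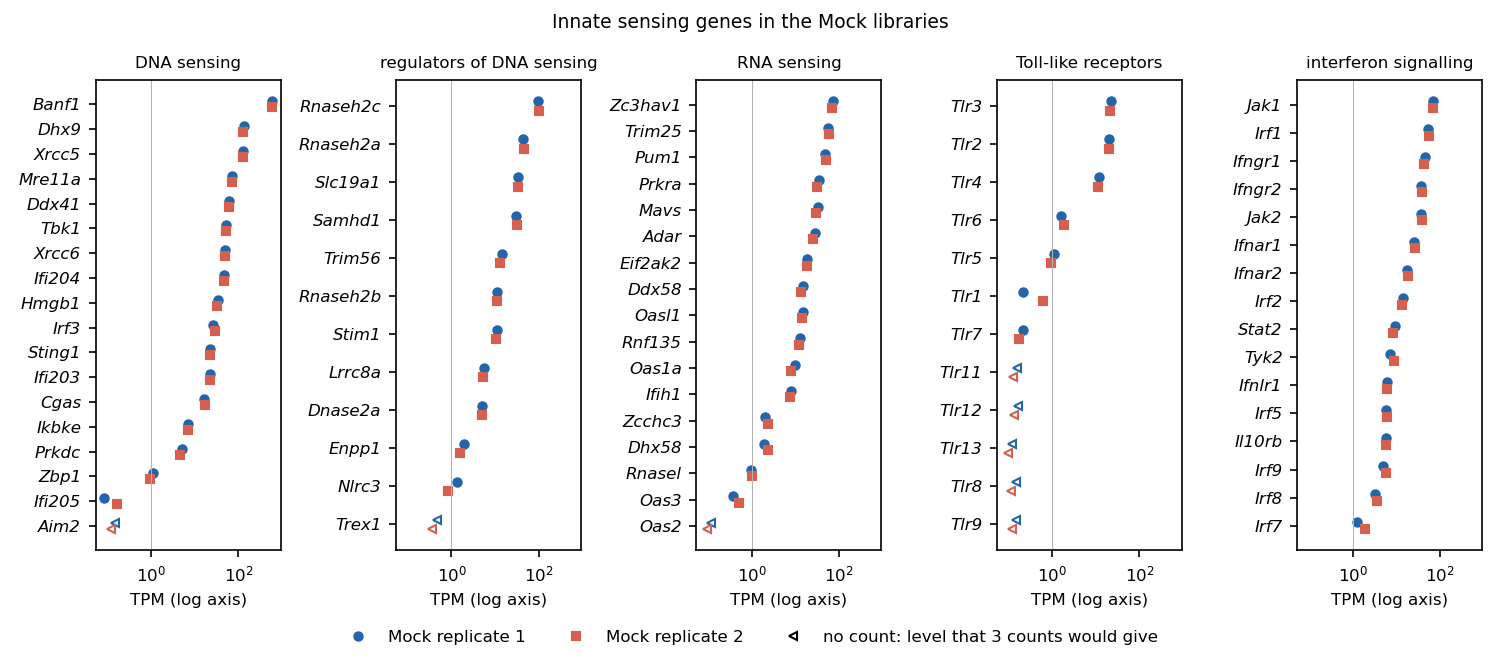
TPM on a log axis for genes of DNA sensing, its regulators, RNA sensing, Toll-like receptors and interferon signalling in replicate 1 (blue circles) and replicate 2 (red squares), with open triangles at the level of 3 counts where a library had none. Cgas and Sting1 lie near 20 TPM, all interferon signalling genes shown have filled symbols, and Aim2, Trex1, Oas2 and 5 Toll-like receptors have only open triangles.

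Chemokine genes were kept less often than the 50.3% of protein-coding genes, and listed protease and matrix genes more often. Of the CXC chemokines, 5 of 15 were kept. Cxcl16, a membrane-bound and shed ligand of CXCR6, had 66.1 and 69.3 TPM. The kept neutrophil attractant genes were Cxcl1 (36.1 and 32.1 TPM), Cxcl5 (21.0 and 21.7) and Cxcl3 (1.502 and 0.875), of which Cxcl3 was the lowest in both libraries. Cxcl10, an interferon-inducible attractant of T cells, had 2.10 and 1.42 TPM from 27 and 23 counts. Cxcl2 had 6 and 7 counts, Cxcl9 had 2 and 3, Cxcl11 had 1 and 1 and Pf4 had none. Cxcl12 had 3 and 0 counts, and Cxcl15, a lung chemokine with 23 and 0 counts, belongs to the 35 genes seen only in replicate 1. Of the CC, CX3C and XC chemokines, 5 of 25 were kept. Cx3cl1 (fractalkine) had 32.3 and 28.8 TPM and the T cell attractant Ccl5 had 14.8 and 16.2 TPM. The monocyte attractant Ccl2 had 9.08 and 7.21 TPM from 59 and 59 counts, and the last kept were Ccl20 (2.83 and 3.53 TPM) and Ccl25 (1.36 and 1.53). Only replicate 1 had counts of Xcl1 (7 and 0 counts), Ccl3 (3 and 0) and Ccl4 (2 and 0). Ccl22, which attracts regulatory T cells, had none.

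Of the interleukins and other cytokines, 13 of 41 were kept, beside 50.3% of protein-coding genes. Mif, macrophage migration inhibitory factor, stood apart with 2371 and 2382 TPM and rank 41. Il24 followed with 72.6 and 74.6 TPM, then Lif (leukaemia inhibitory factor) with 43.9 and 42.7 TPM, Tslp (thymic stromal lymphopoietin) with 35.8 and 38.0 TPM, the IL-23 subunit gene Il23a with 31.4 and 32.2 TPM and Il34, a ligand of CSF1R, with 25.6 and 28.7 TPM. Il12b, which encodes the chain that completes IL-23, had no count, where 3 counts would give 0.267 and 0.212 TPM. Clcf1 had 22.6 and 22.0 TPM, Il1a and Il18 were below 10 TPM, and Il4 had 9 and 27 counts. Below the minimum were Il6 (1 and 0 counts), Tnf (3 and 2) and Il11 (2 and 2), among others, and Il10, Il12a and Osm had none.

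Among colony-stimulating factors, 4 of 7 (57.1%) were kept, beside 50.3% of protein-coding genes. Csf1, which sustains macrophages, had 152 and 149.6 TPM and Csf3 (G-CSF), which drives neutrophil production, had 55.5 and 56.6 TPM. Kitl had 12.2 and 12.8 TPM, Csf2 (GM-CSF) had 1 and 3 counts and Epo had none. Csf1 over Csf3 was 2.74 and 2.64, and Csf1 over its receptor gene Csf1r was 239 and 282. The receptor gene Csf3r had 1 and 0 counts and Csf2rb had 3 and 0.

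**Figure D4:**
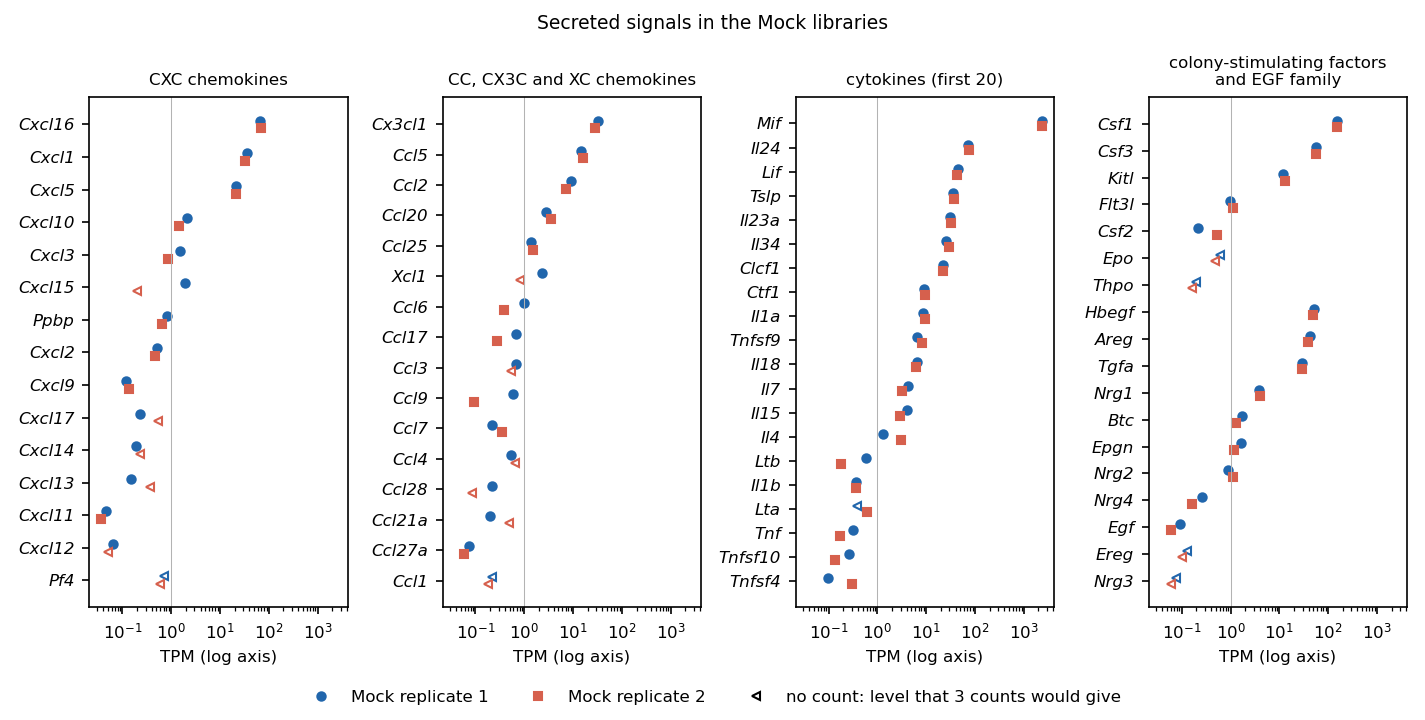
TPM on a log axis for CXC chemokines, the other chemokines, cytokines (the 20 highest), colony-stimulating factors and EGF family ligands in replicate 1 (blue circles) and replicate 2 (red squares), with open triangles at the level of 3 counts where a library had none. Mif lies above 1000 TPM and Csf1 above 100 TPM, and most chemokines lie below 1 TPM.

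Growth factor genes were measured with their receptors side by side. Of the EGF and neuregulin ligands, 7 of 11 (63.6%) were kept, beside 50.3% of protein-coding genes. They were led by Hbegf (51.8 and 49.5 TPM), Areg (41.7 and 38.9 TPM) and Tgfa (29.1 and 29.7 TPM). Egfr, the receptor of all 3, had 1.21 and 0.885 TPM, and Erbb2 over Egfr was 34.8 and 49.2. Of the TGF-beta superfamily ligands and binding proteins, 12 of 23 (52.2%) were kept, near the 50.3% of protein-coding genes. The procollagen protease Bmp1 had 110.3 and 109 TPM, the activin subunit gene Inhba had 39.0 and 37.4 TPM, Tgfb1 had 32.4 and 30.9 TPM and Tgfb3 had 22.4 and 24.5 TPM. Gdf15, a stress-induced cytokine, had no count, where 3 counts would give 0.284 and 0.225 TPM, nor had Bmp2, Nodal or Grem1.

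Of the vascular and other growth factors, 31 of 57 were kept. Hdgf (hepatoma-derived growth factor) had 1041 and 1055 TPM. The matricellular genes Ccn1 (452 and 450.2 TPM) and Ccn2 (379.5 and 387), known targets of YAP, came next. Fgfbp1, a carrier of fibroblast growth factors, had 163 and 179 TPM, and Grn (progranulin) had 122 and 126 TPM. Wnt7b had 119.7 and 129 TPM and Wnt7a 77.0 and 80.3 TPM, while Wnt3a had 1 and 0 counts and Wnt6 none. The vascular growth factor genes were led by Pdgfb (111 and 114 TPM) and Vegfb (112 and 112), and Vegfa had 30.5 and 30.3 TPM. Pdgfrb, the main receptor gene for Pdgfb, had 5 and 6 counts. Gas6, the ligand of AXL, had 22 and 0 counts and is among the 35 genes seen only in replicate 1, whereas Pros1, the related ligand of other members of that receptor family, had 3.30 and 2.08 TPM. Hgf, the ligand of MET, had no count, where 3 counts would give 0.0731 and 0.0581 TPM.

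Of the growth factor receptors, 27 of 40 (67.5%) were kept, beside 50.3% of protein-coding genes. Axl led with 630.3 ± 2.91 TPM (SD, n = 2), and Axl over its relative Tyro3 was 43.5 and 47.5. The ephrin receptor Epha2 had 195 and 201 TPM, Nrp2 had 114 and 119 TPM, Met had 113 and 110.1 TPM and the collagen receptor Ddr2 had 75.5 and 76.3 TPM. Of the TGF-beta and BMP receptor genes, Tgfbr2 (72.0 and 69.2 TPM) and Bmpr1a (65.8 and 65.8) were highest. Fgfr1 had 2 and 5 counts, Erbb4 had 0 and 1, and Mst1r and Ros1 had none. Of the cytokine receptors, 22 of 37 (59.5%) were kept. Tnfrsf12a, the receptor of the cytokine TWEAK, had 619.9 and 608 TPM, Ltbr (lymphotoxin receptor) had 122 and 117 TPM and Tnfrsf1a had 59.8 and 55.6 TPM. The atypical chemokine receptor Ackr3 had 55.5 and 54.0 TPM, Il13ra1 had 45.5 and 43.5 TPM and Il6st (gp130) had 29.6 and 30.7 TPM. The receptors Cxcr2, Cxcr4 and Ccr2 had at most 2 counts, all in replicate 1, with 2 and 0 for Ccr2.

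Proteases, inhibitors and matrix genes held some of the highest levels among secreted products. Of the proteases and activators, 28 of 42 (66.7%) were kept, beside 50.3% of protein-coding genes. Htra1, a secreted serine protease, had 441 and 427 TPM, and the lysosomal cathepsin genes included Ctsl (364 and 367 TPM), Ctsz (279.9 and 278) and Ctsd (146 and 143). Urokinase and its receptor, which activate plasmin at the cell surface, were both expressed, with Plau (201 and 201 TPM) and Plaur (115 and 114). Mmp9, a gelatinase, had 184 and 180.1 TPM, whereas the other gelatinase gene Mmp2 had 9 and 10 counts. Adam9 had 148 and 144 TPM. Mmp7, Mmp8, Mmp16, Mmp17 and Mmp25 had no count, and for Mmp8 3 counts would give 0.217 and 0.172 TPM. Of the protease inhibitors, 14 of 19 were kept. Serpinh1, a collagen chaperone of the serpin family, had 663 and 674 TPM. Of the metalloproteinase inhibitor genes, Timp2 (408 and 408 TPM) and Timp1 (188 and 168) were highest, and Timp2 over Timp1 was 2.17 and 2.44. Cst3 had 247 and 267 TPM, Timp3 had 2 and 0 counts and Timp4 had none.

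Of the matrix and matricellular genes, 28 of 39 (71.8%) were kept, beside 50.3% of protein-coding genes, and 12 exceeded 100 TPM. Thbs1 (thrombospondin-1) had 549 and 548 TPM, Spp1 (osteopontin) had 281 and 284 TPM and Sparc had 179.7 and 182 TPM. The laminin gene Lamb1 had 136 and 133 TPM, Col4a1 (collagen IV) had 175 and 178 TPM and the crosslinking enzyme Loxl4 had 124 and 125 TPM. Lamb1 and Col4a1 encode basement membrane proteins, while the fibrillar collagens Col1a1 and Col3a1 were near or below the minimum, as given above. Lox had 1 and 0 counts, Loxl2 had 1 and 0 and Lama1, Lama2 and Nid2 had none. Of the other secreted factors, 14 of 29 (48.3%) were kept, near the 50.3% of protein-coding genes. After Lgals1 came Psap (prosaposin) at 406 and 395 TPM, Clu (clusterin) at 207 and 223 TPM and Lgals3 (galectin-3) at 191 and 202 TPM. Lcn2 (lipocalin-2) had 61 and 5 counts, Saa3 had 22 and 2, and the neutrophil genes were S100a8 (37 and 0 counts) and S100a9 (44 and 0). These 4 genes were present mainly or only in replicate 1. Chil1 (chitinase-like 1) had 29 and 0 counts and is also among the 35.

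Nearly all tumour suppressors and cell cycle drivers were kept, at 26 of 28 and 36 of 37. Ccnd1 (cyclin D1) had 871 and 882 TPM, its kinase Cdk4 had 495 and 503 TPM and Myc had 448 and 442 TPM. Of genes known from proliferating cells, the list held Pcna (489.9 and 485 TPM), Top2a (413 and 411), Birc5 (156 and 150.5) and Mki67 (93.5 and 91.6), and the kinase gene Akt1 had 479.8 and 477 TPM. The median of these 37 drivers was 49.3 TPM, and 10 of them exceeded 100 TPM. Mycn had 2 and 0 counts, and Myc over Mycl was 104 and 82.7. Trp53 had 46.5 and 51.5 TPM and Cdkn1b (p27) had 86.0 and 83.3 TPM. These levels do not show whether the encoded protein is intact.

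The tumour suppressor Cdkn2a had no count, where 3 counts would give 0.448 and 0.356 TPM, and its neighbour Cdkn2b had 2 and 0 counts. Both lie on chromosome 4 (GRCm39), Cdkn2a at chr4:89192708-89212890 and Cdkn2b at chr4:89224536-89229276. The nearest protein-coding gene on 1 side, Mtap at chr4:89055359-89099318, a methionine salvage enzyme gene, had 903 and 899.5 TPM and ranked 160. On the other side, Dmrta1 at chr4:89567673-89583009 had no count. From Mllt3 to Elavl2, 42 protein-coding genes were listed, many of them interferon genes, of which 5 were kept and 33 had no count. Beside Mtap, the kept ones were Mllt3 (7.60 and 7.65 TPM), Focad (9.01 and 9.81), Hacd4 (2.67 and 2.80) and Klhl9 (54.0 and 56.8). Mtap over Klhl9 was 16.7 and 15.8.

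Of the sex chromosome genes, 4 of 9 were kept, and these were on the X chromosome. Ddx3x had 345 and 346 TPM, Eif2s3x had 331 and 334 TPM, Kdm5c had 39.8 and 38.8 TPM and Kdm6a had 11.8 and 12.2 TPM. Xist, the RNA that coats the inactive X chromosome, had 5 and 0 counts. The Y-linked genes were Eif2s3y (5 and 0 counts), Ddx3y (3 and 0) and Kdm5d (2 and 0), and Uty had no count. The counts of these Y-linked genes and of Xist lay in replicate 1, whereas protein-coding genes of the Y chromosome as a whole held 29 and 30 counts.

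Of the 21878 protein-coding genes, 7648 (35.0%) had no count in either library. Olfactory and vomeronasal receptors sense odours and pheromones. Of 1433 such entries, matched by symbol whatever their biotype, 1412 had no count and 0 were kept, with 39 and 53 counts in all. Of the 7648 genes, 402 had more than 50% of their length covered by exons of other genes, so reads there could not be assigned. The gene lists were chosen with earlier results of these data known, so their shares kept describe the lists only and were not tested. Read against the 50.3% of protein-coding genes kept, the share was lower among immune (4 of 25), endothelial (18.2%) and fibroblast (30.8%) markers, CC, CX3C and XC chemokines (5 of 25), CXC chemokines (33.3%), interleukins and other cytokines (31.7%) and Hox genes (23.1%). It was higher among interferon signalling (100%), oncogene and cell cycle (97.3%), RNA sensing (94.1%), epithelial junction (93.3%), tumour suppressor (92.9%) and DNA sensing genes (88.9%). Mammary lineage (46.3%), vascular and other growth factor (54.4%), TGF-beta superfamily (52.2%) and other secreted factor genes (48.3%) were near it. Others kept more often included protease inhibitor (73.7%), epithelial regulator (82.6%), NOD-like signalling (87.5%) and DNA sensing regulator genes (91.7%). Adipocyte, blood, muscle, nerve and liver markers (8%) and melanocyte, germ cell and placental genes (10.5%) were kept less often. On the Y chromosome 1 of 175 protein-coding genes was kept (0.571%), Gm47283 with 11 and 18 counts, and on the X chromosome 313 of 929 (33.7%). On the other nuclear chromosomes the share ran from 40.4% on chromosome 7 to 60.1% on chromosome 12.

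Genes with and without counts differed in the composition of the sequence around their start. Promoter windows of 300 bases (250 before and 50 after the start, RefSeq, GRCm38.p6) were matched by symbol for 13815 of the 21878 protein-coding genes. Genes with more than 1 promoter entry were left out, so the bands below describe genes with 1 entry. CpG content is given as the number observed over the number that base composition predicts. The median was 0.197 for 5028 genes without a count, 0.390 for 1897 genes below the minimum and 0.726 for 1926 kept genes under 10 TPM. It was 0.822 for 3937 genes of 10 to 100 TPM, 0.835 for 961 genes of 100 to 1000 TPM and 0.838 for 66 genes above 1000 TPM. The median was thus higher in each band up to 10 TPM and nearly equal in the 3 highest. Without olfactory and vomeronasal receptors, genes with no count had a median of 0.237.

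The letters TATAAA were searched on both strands, with any overlap counted once per window. They were found in 24.1% of windows of genes without a count and in 13.4% of those below the minimum. Without olfactory and vomeronasal receptors, the share was 19.2% for genes with no count. The share was 6.28% under 10 TPM, 5.41% at 10 to 100 TPM, 8.84% at 100 to 1000 TPM and 13.6%, or 9 of 66, above 1000 TPM. Over the 13815 protein-coding genes of these bands it was 13.7%, and over all 22862 promoters of the table it was 14.8%. Some single genes lay far from the CpG medians of their bands. The windows of Krt8 and Vim, both above 1000 TPM, held the TATAAA letters (for Krt8 across the start itself, so not within the 250 bases printed above) and had CpG values of 0.238 and 0.421, and Krt14 had 0.286. Hoxa5 (1.02) and Eef1a1 (0.697) lay between the 10th and the 90th percentile of their bands. These are features of reference sequence, and neither methylation nor binding was measured.

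**Figure D5:**
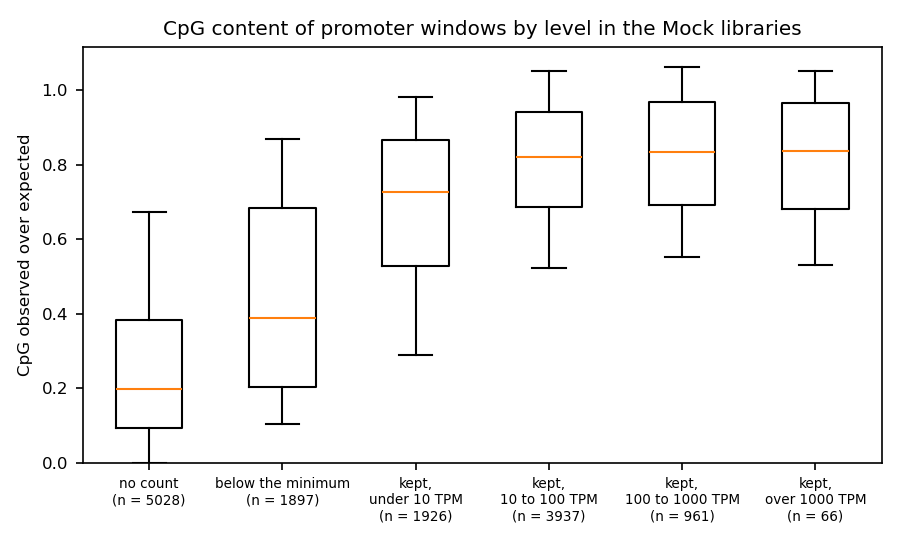
CpG observed over expected in promoter windows of protein-coding genes, by level in the Mock libraries, with the number of genes under each box. Lines inside boxes are medians, boxes span the quartiles and whiskers run from the 10th to the 90th percentile; the median rises from 0.197 for genes without a count to 0.822 at 10 to 100 TPM and is 0.838 above 1000 TPM.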

How the data were processed

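RNA was measured in 2 Mock libraries of 4T1 cells. Per the labels' protocols, a column kit gave total RNA and the NEBNext Ultra kit the libraries; poly(A) selection and strand marking are not stated there. The tables deposited by the authors held raw counts for each gene. Per the file headers, the authors counted exons by gene with featureCounts 2.0.1 in paired mode, without a strand option, on uniquely mapped reads and the Ensembl 103 annotation of GRCm39. Reads were aligned with HISAT2 per the submitters' processing notes (version not given in the sources used here). Reads of overlapping genes, and of antisense pairs, therefore cannot be told apart. The column names of the 2 libraries share their first part, the meaning of which is not stated.

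From these, TPM was computed with the deposited exon length over all genes (Python 3.11.15, pandas 2.3.3, scipy 1.17.1), and genes with 10 or more counts in both libraries were kept. Symbols matched 52093 of 53647 identifiers, and biotypes came from an older annotation (GENCODE, GRCm38) by identifier. The calculations were checked on simulated data. The delivered EGFP sequence is not in the annotation and was not analysed here. The members and 42 gene lists were chosen with earlier results of these data known. In each list the rule named up to 8 kept genes with the highest TPM and any gene under 10 counts in a library, beside the 20 most abundant genes and the 10 with most counts among those seen only in replicate 1. Genes named outside it (among them Cgas, Sting1, Irf3, Mavs, Ddx58, Ifih1, Esr1, Zeb1 and Zeb2) were chosen after their values were seen. Alternatives were other minimums, other scalings, CPM, and each library alone. Depth was 17502694 and 22039546 counts, and 1 count of a gene of 1000 bases was worth 0.175 and 0.139 TPM. Some list members are counted but not reported by name here.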

Additional observations from a re-analysis of the deposited data

How the results depend on the processing

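The number of kept genes was 16397 with a minimum of 1 count in both libraries, 13345 with 5, 10557 with 50, 13142 with 10 counts in either library and 12194 with 1 TPM in both, and 12690 to 12840 from 1 library alone. With a minimum of 1 count in both libraries, the members kept were 6 endothelial, 7 fibroblast and 8 other tissue markers, 12 inflammasome genes, 21 cytokines, 4 melanocyte, germ cell and placental genes, 9 CXC and 10 other chemokines, 1 interferon, 12 claudins and 12 olfactory and vomeronasal receptors (2 with a minimum of 5). With 50 counts they were 3 basal and stratified keratins, 2 immune, 2 fibroblast and 1 other tissue marker, 3 Toll-like receptors, 4 inflammasome genes, 4 EGF family ligands, 1 melanocyte, germ cell or placental gene, 3 CXC chemokines and 4 claudins. With 1 TPM in both they were 2 immune, 2 fibroblast and 1 other tissue marker. With 10 counts in either library 5 endothelial and 5 other tissue markers were kept, and from 1 library alone 2 to 5 of each; the higher number came from replicate 1. The remaining counts of members stayed within 1.5 times.

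The 100 most abundant genes held 30.1% of TPM without mitochondrially encoded genes, 31.6% over protein-coding genes only, 19.5% of CPM, 31.3% without the genes seen only in replicate 1, and 31.3% in either library alone. TPM of all genes rose by a common factor of 1.04 and 1.15 under the first and second of these scalings, which moves no rank. CPM, which does not divide by length, moved 12 of 46 named genes by over 10% of the ranks, and its Spearman's rho with TPM over kept genes was 0.867. No paired analysis was possible because only 1 group was described and no test was made.

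Depth limits all absent genes to under the level of 3 counts, and exon overlap hides some. The SD rests on 2 libraries.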

Other observations

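Long noncoding RNAs were measured beside the protein-coding genes. Hosts of small nucleolar RNAs were among the most abundant, with Gas5 at 136 and 135 TPM, Snhg8 at 118 and 111 TPM, Snhg1 at 110.2 and 112 TPM, Snhg6 at 106 and 105 TPM, Zfas1 at 65.7 and 59.4 TPM and Snhg5 at 60.5 and 56.7 TPM. The nuclear RNAs Malat1 and Neat1 had 69.2 and 62.3 TPM and 27.1 and 26.9 TPM, and Tug1 had 40.3 and 40.8 TPM. Malat1 and Zfas1 were lower in replicate 2 than in replicate 1, by more than the difference for Neat1 or Tug1.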
